A study of Homo sapiens with 4 samples.

Results

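Chromosome 19 carries the densest clusters of zinc finger genes in the human genome, and accessible chromatin at these genes was measured by ATAC-seq of MCF10A cells. The members were all regions that the authors' deposited table places on chromosome 19 and annotates to a gene whose symbol is ZNF followed by a number. This gave 250 of 58127 regions, at 181 gene symbols. They comprised 134 promoters and 116 other regions, which lie in introns, 5′ UTRs, non-coding exons, at transcript ends or between genes. ATAC-seq cuts open DNA with a transposase, and the reads in a region measure how accessible it is. All 4 libraries come from MCF10A, a human cell line of breast epithelium that is immortal but does not form tumours. One group of 2 libraries, lettered A and B, carried a short hairpin named shG8d against SNHG8d, one form of the non-coding transcript SNHG8, whose gene hosts a small nucleolar RNA. The other group of 2, also A and B, carried a control hairpin, shNC. No label gives the number of clones or says that A and B were separate cultures, so p-values cover only a spread that may be technical.

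The group labels are exchanged inside the table, and this governs how each direction below has to be read. Each library can be recognised by the value of a single read after the authors' scaling. The libraries worth 0.842 and 0.807 normalized counts per read had more reads (8124488 and 8111839 in all regions) and are called the deeper pair. Those worth 1.21 and 1.17 had 4457248 and 4344212 reads and are called the shallower pair. In the regions called common, the deeper pair is labelled shG8d. In the regions called specific to shNC or to shG8d, the same deeper libraries are labelled shNC. Differences are therefore given as deeper minus shallower pair, on the log2(normalized count + 1) scale, and none is assigned to the hairpin. Which labelling is right cannot be told from these values. Of the 250 regions, 183 were common, 58 shNC-specific and 9 shG8d-specific. The sources used here do not give how the authors chose the specific sets, so p-values in those sets are not independent of that choice.

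Most ZNF genes of chromosome 19 encode proteins with an array of C2H2 zinc fingers, which read DNA, and many also carry a KRAB domain. The KRAB domain binds the co-repressor TRIM28, which brings in the histone methyltransferase SETDB1 and heterochromatin proteins and silences transposable elements. The clusters grew by tandem duplication, so neighbouring genes and their promoters are often related in sequence. Reads from near-identical copies could be split between them or lost, and the sources used here do not give how such reads were treated.

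Sequences are given for 8 promoters, which are the extremes of the calls, and shares over all called members are given below. They are the 4 with the largest higher and the 4 with the largest lower signal in the deeper pair. They were taken among called common promoters with an entry in the RefSeq promoter table. Their 250 bases upstream of the RefSeq start are printed 5′ to 3′ on the gene's strand, from RefSeq GRCh38.p14, so that the motif contrast reported below can be seen in the letters. Capitals mark CCAAT, the core of the box that the factor NF-Y binds, or its other-strand form ATTGG, and in ZNF615 they mark AAGATGGCG, the core of the YY1 site. ZNF627, ZNF563, ZNF57 and ZNF549 were higher, and each holds at least 1 CCAAT.
ZNF627, chr19:11597233-11597482, plus strand: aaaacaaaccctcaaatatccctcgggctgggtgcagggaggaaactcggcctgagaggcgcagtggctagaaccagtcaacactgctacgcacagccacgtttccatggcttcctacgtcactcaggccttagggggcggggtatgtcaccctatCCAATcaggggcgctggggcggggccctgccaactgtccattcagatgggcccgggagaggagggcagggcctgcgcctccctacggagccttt
ZNF563, chr19:12333634-12333883, minus strand: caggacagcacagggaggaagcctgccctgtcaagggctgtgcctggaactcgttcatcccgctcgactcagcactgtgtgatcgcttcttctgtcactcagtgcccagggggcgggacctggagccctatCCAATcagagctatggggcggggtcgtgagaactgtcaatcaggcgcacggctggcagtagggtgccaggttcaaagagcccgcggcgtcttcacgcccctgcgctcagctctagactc
ZNF57, chr19:2900678-2900927, plus strand: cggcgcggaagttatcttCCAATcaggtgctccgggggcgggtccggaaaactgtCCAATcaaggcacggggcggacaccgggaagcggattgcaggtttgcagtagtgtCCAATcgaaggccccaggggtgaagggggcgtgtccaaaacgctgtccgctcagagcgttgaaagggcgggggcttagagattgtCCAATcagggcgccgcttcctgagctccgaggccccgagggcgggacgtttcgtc
ZNF549, chr19:57527106-57527355, plus strand: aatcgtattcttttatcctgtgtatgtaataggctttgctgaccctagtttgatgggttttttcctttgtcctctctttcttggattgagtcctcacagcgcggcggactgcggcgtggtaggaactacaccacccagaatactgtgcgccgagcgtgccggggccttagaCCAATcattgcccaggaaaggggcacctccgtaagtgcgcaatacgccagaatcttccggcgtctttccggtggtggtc
ZNF432, ZNF615, ZNF573 and ZNF784 were lower. CCAAT occurs in none of the first 3 on either strand, and ZNF784 has the other-strand form close to its start.
ZNF432, chr19:52048839-52049088, minus strand: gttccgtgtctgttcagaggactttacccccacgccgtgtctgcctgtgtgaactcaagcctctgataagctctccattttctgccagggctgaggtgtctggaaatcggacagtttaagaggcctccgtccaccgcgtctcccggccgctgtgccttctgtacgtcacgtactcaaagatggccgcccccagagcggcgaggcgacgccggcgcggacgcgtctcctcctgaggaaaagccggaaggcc
ZNF615, chr19:52008212-52008461, minus strand: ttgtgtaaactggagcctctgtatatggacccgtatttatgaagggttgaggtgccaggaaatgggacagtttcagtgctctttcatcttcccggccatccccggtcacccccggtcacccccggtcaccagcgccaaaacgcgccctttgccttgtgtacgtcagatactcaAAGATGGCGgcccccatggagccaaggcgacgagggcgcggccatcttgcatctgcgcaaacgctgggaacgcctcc
ZNF573, chr19:37779587-37779836, minus strand: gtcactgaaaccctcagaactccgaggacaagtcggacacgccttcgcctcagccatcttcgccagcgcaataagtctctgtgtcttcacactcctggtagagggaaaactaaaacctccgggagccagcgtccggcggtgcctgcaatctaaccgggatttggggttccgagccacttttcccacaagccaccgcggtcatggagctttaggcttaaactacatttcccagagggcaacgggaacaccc
ZNF784, chr19:55624567-55624816, minus strand: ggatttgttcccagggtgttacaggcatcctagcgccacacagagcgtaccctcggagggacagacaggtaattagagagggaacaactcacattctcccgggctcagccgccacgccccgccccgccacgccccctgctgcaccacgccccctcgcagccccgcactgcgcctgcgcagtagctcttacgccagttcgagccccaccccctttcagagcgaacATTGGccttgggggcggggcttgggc
These coordinates belong to the RefSeq table and were matched to the deposited hg19 regions by gene symbol only.

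Depth and identity of the libraries were as follows. A member region held between 11 and 499 reads in a library, with medians of 82.5 and 93.0 in the deeper pair against 63 and 60 in the shallower pair. Reads of the 2 libraries of a pair differed by more than counting noise at the members, and the chi-square averaged 2.18 for the deeper pair and 2.39 for the shallower pair, taken per region. Of 11 markers of basal mammary epithelium, 6 had a promoter region (KRT5, KRT14, KRT17, LAMB3, ITGB4 and EGFR), and of 10 markers of other cell types 0 had one. The SNHG8 promoter had 109 and 98.5 normalized counts in the deeper and 94.2 and 69.1 in the shallower pair (limma adjusted p = 0.267). A hairpin acts on the transcript, so this region checks neither the knockdown nor the labels.

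Among common promoters, ZNF members were called in both directions, in shares near those of all promoters. With limma at an adjusted p under 0.05 over all 58127 regions, 18 of 104 were higher in the deeper pair (17.3%, against a background of 19.9% of all 6542 common promoters). Lower calls numbered 11 (10.6%, against 11.7%). The median difference of the members was -0.08, and that of all common promoters 0.06. Promoters of other chromosome 19 genes had 71 higher and 32 lower of 315 with a median of 0.14, and promoters of ZNF genes on other chromosomes had 23 and 9 of 109 with a median of 0.08. The mean signal of member promoters had a median of 98.6 normalized counts beside 108 for all. Per library the member medians were 98.0 and 106 normalized counts in the deeper and 95.4 and 87.3 in the shallower pair.

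Outside promoters the shares were also close to the background. Of 79 other common regions, 6 were higher (7.59%, against 8.53% of 27371) and 10 lower (12.7%, against 15.8%), with a median of -0.17 beside -0.16 for all. In the shNC-specific set, 3 of 30 promoters were higher (10%, against 29.7% of 2807) and 0 lower (against 0.926%). The other shNC-specific regions had 3 of 28 higher (10.7%, against 10.8% of 18652) and 0 lower (against 0.986%). For those 58 members together, 1 was lower at an unadjusted p under 0.05 and 0 by limma-voom on recovered reads. In the shG8d-specific set there was no member promoter, and 7 of 9 other regions were lower (77.8%, against 70.1% of 2490). The widest gap between members and background was thus at shNC-specific promoters, where the ZNF median was 0.30 and that of all 0.49, against 0.53 for 170 other chromosome 19 promoters and 0.55 for 36 ZNF promoters elsewhere. Mean signal was lower at those ZNF promoters too, with a median of 36.0 normalized counts beside 48.3 for all.

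**Figure D1:**
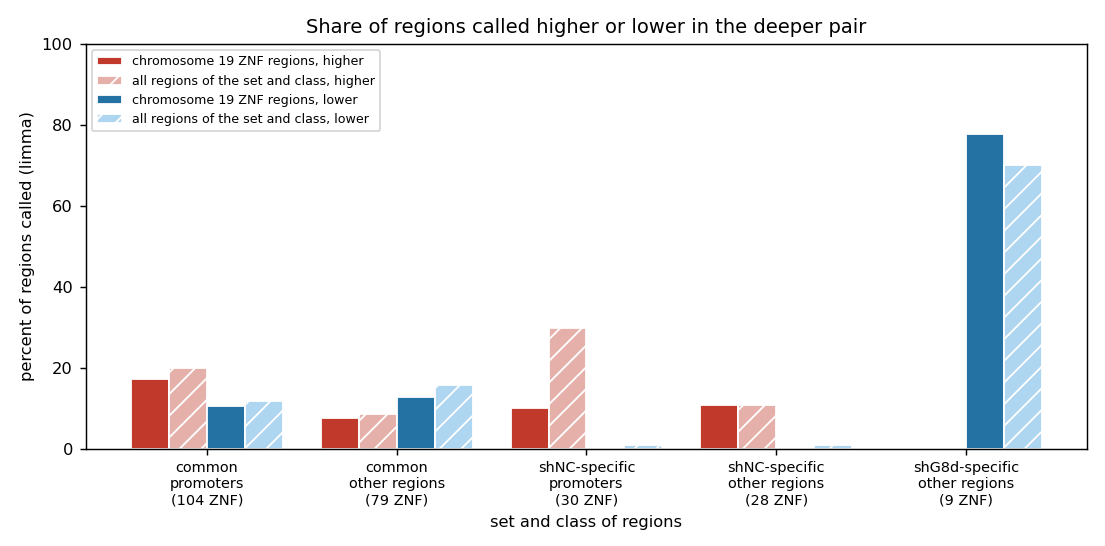
Percent of regions called higher or lower in the deeper pair by limma, for chromosome 19 ZNF members and for all regions of the same set and class (bars). The paired bars are close in the common set, with 17.3% of member promoters higher beside 19.9% of all, and furthest apart at shNC-specific promoters, with 10% beside 29.7%.

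The library totals set the balance of these calls. With the 4 libraries scaled to equal totals in regions, the median difference of all 58127 regions moved from -0.02 to -0.36, and member common promoters had 7 higher and 39 lower calls. The share of higher calls went from 62.1% to 15.2% at member common promoters and from 63.0% to 20.9% at all common promoters. For other common regions of members it went from 37.5% to 6.25%. Directions below are therefore relative to the other regions of the table.

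ZNF627 had the largest difference of any member promoter that was higher. Its region, at -19 bp from the annotated start of the gene, had 158 and 148 normalized counts in the deeper pair, A then B, and 62.8 and 37.5 in the shallower pair. Both deeper libraries were far above both shallower ones. The difference was 1.64 (SE 0.249, limma adjusted p = 0.000242). ZNF563, in the same run of ZNF genes, had 119 and 107 against 43.5 and 48.0, a difference of 1.28 (SE 0.239, limma adjusted p = 0.00120). Here too the groups were far apart, and the libraries within each pair were close.

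The genes ZNF57 and ZNF555 lie close to one another near the short-arm end of the chromosome. The ZNF57 promoter had 139 and 153 normalized counts in the deeper pair against 66.4 and 59.8 in the shallower, a difference of 1.19 (SE 0.214, limma adjusted p = 0.000904). ZNF555 had 138 and 122 against 67.7 and 50.4, a difference of 1.14 (SE 0.231, limma adjusted p = 0.00219). Both were separated without overlap. ZNF549, in the cluster at the long-arm end, had 186 and 151 against 83.4 and 64.4, a difference of 1.18 (SE 0.216, limma adjusted p = 0.00103).

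ZNF56 had the highest signal of all member promoters, with 385 and 403 normalized counts in the deeper and 220 and 191 in the shallower pair. Its difference was 0.94 (SE 0.166, limma adjusted p = 0.000799). The deposited annotation treats ZNF56 as protein-coding, whereas the RefSeq table lists the symbol as a synonym of the transcribed pseudogene ZNF56P. All 6 of these calls were kept when any 1 library was left out. The other 12 higher common promoters ranged from 0.88 (ZNF77 and ZNF799) to 0.51 (ZNF8). ZNF444, whose protein has a SCAN domain, was among them at 0.67.

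ZNF432 had the largest lower difference, and its values ran opposite to those of ZNF627. Its region, at 222 bp from the annotated start, had 66.5 and 78.3 normalized counts in the deeper and 156 and 149 in the shallower pair. The 2 shallower libraries were nearly equal and both well above the deeper ones. The difference was -1.07 (SE 0.209, limma adjusted p = 0.00171), and the call was kept when any 1 library was left out.

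ZNF615, a close neighbour of ZNF432, had 27.8 and 28.2 normalized counts in the deeper and 58.0 and 56.2 in the shallower pair. Its difference was -1.0 (SE 0.304, limma adjusted p = 0.0226). The libraries within each pair were almost identical, yet the call was lost without deeper A and without deeper B. The difference itself hardly moved there, at -0.99 and -1.01. ZNF784 had 34.5 and 39.5 against 64.0 and 82.0, a difference of -0.95 (SE 0.279, limma adjusted p = 0.0190). It was no longer called by limma without deeper A (adjusted p = 0.138), deeper B (0.0573) or shallower B (0.0801).

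ZNF573 had 55.5 and 71.8 normalized counts in the deeper and 116 and 131 in the shallower pair, a difference of -0.95 (SE 0.228, limma adjusted p = 0.00607). ZNF790 was lower at both of its promoter regions. The stronger one, at 211 bp from a start, had 139 and 176 against 273 and 305, a difference of -0.88 (SE 0.181, limma adjusted p = 0.00236), and the weaker one, at -81 bp, had a difference of -0.85 (limma adjusted p = 0.0416). ZNF700 had 94.3 and 114 against 167 and 214, a difference of -0.86 (SE 0.202, limma adjusted p = 0.00541). Without deeper A, limma no longer called ZNF573 (adjusted p = 0.111), the stronger ZNF790 region (0.0865) or ZNF700 (0.102). The 4 remaining lower promoters were ZNF613, ZNF614, ZNF611 and ZNF546, with differences from -0.77 to -0.69.

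**Figure D2:**
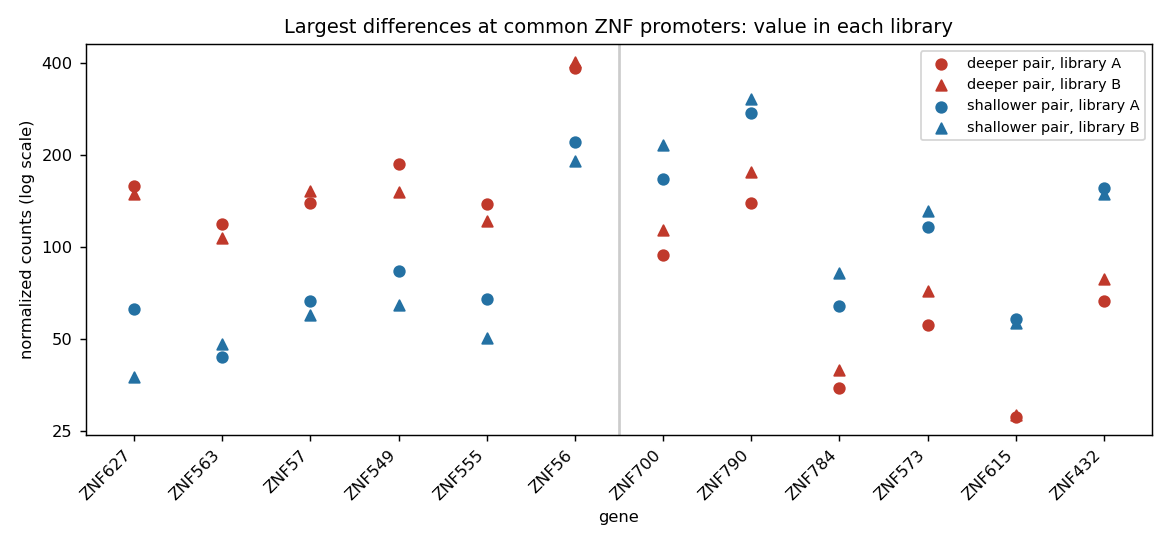
Normalized counts in each of the 4 libraries (points, log axis) at the 6 common ZNF promoters with the largest higher and the 6 with the largest lower difference. Deeper and shallower libraries do not overlap at any of the 12, from ZNF627 (158 and 148 against 62.8 and 37.5) to ZNF700 (94.3 and 114 against 167 and 214).

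After ZNF56, the member promoters of highest mean signal were ZNF565, ZNF790, ZNF574 and ZNF566. ZNF565 had 177 and 227 normalized counts in the deeper and 230 and 286 in the shallower pair (-0.35, limma adjusted p = 0.172). ZNF574 had 225 and 288 against 194 and 171 (0.48, limma adjusted p = 0.0627), and ZNF566 had 192 and 197 against 234 and 199 (-0.15, limma adjusted p = 0.566). None of these 3 passed the test. At ZNF234, just outside the threshold, the difference was -1.09 (limma adjusted p = 0.0503), with 16.0 and 46.0 normalized counts in the deeper pair against 48.3 and 72.6 in the shallower. The 2 deeper libraries there were far apart from one another, and deeper B lay just below shallower A.

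Of the members with a known individual role, 6 follow, and none passed the test with limma. ZNF331, an imprinted gene, had a common promoter at 43.8 and 52.5 against 45.9 and 48.0 normalized counts (0.03, limma adjusted p = 0.955). ZNF350, a repressor that binds BRCA1, had a promoter difference of -0.44 (limma adjusted p = 0.264), and ZNF224, a KRAB repressor that acts with WT1, one of -0.62 (limma adjusted p = 0.0986). ZNF274 brings TRIM28 and SETDB1 to the 3′ ends of ZNF genes themselves. Its region in the 5′ UTR had 34.5 and 51.6 against 73.7 and 50.4 (-0.52, limma adjusted p = 0.222), so its libraries overlapped between pairs. ZNF91, which represses SVA elements, had 163 and 128 against 117 and 83.2 at its 5′ UTR (0.55, limma adjusted p = 0.0760). ZNF93, which represses L1 elements, had 105 and 114 against 143 and 107 (-0.17, limma adjusted p = 0.592).

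The differences were unequally placed along the chromosome. A run was defined as at least 4 ZNF genes with at most 3 other protein-coding genes between neighbours in RefSeq order. Genes with symbols starting with ZFP, ZSCAN, ZKSCAN or ZIM, and PEG3 and MZF1, also served as neighbours but did not count towards the 4. There were 10 runs, which hold 228 of the 250 chromosome 19 ZNF genes of RefSeq and 224 of the 250 regions. By the deposited scaling, called common promoters in runs 1, 3 and 10 were higher except 1, and those in runs 6 and 8 were lower. With equal library totals, run 1 had 2 higher and 0 lower calls, run 3 had 3 and 2, run 6 had 0 and 9, run 8 had 0 and 15, and run 10 had 1 and 3, so the balance of calls turned in run 10. Over all common promoters, 19.9% were higher and 11.7% lower, and 2992 of 6542 lay below 0, which is the background for the counts in each run. Runs were set with earlier results of these data known, so these counts are a description and carry no test.

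Run 1 spans ZNF554 to ZNF77 at the short-arm end. All 3 of its common promoters (ZNF555, ZNF57 and ZNF77) were higher, with a median difference of 1.14. At ZNF77 the deeper pair had 148 and 151 normalized counts and the shallower pair 111 and 58.6, so the 2 shallower libraries differed widely from one another.

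Run 3, from ZNF627 to ZNF791, had 14 common promoters with a median of 0.38. ZNF627, ZNF563, ZNF799 and ZNF443 were higher and ZNF700 was lower, and 9 of the 14 lay above 0. Run 10, from ZNF787 to ZNF446 at the long-arm end, had 21 with a median of 0.35. In it 7 were higher (ZNF549, ZNF416, ZNF837, ZNF543, ZNF787, ZNF444 and ZNF8), 0 lower (2 lower at an unadjusted p under 0.05, 0 by limma-voom and 3 with equal library totals), and 14 lay above 0.

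Run 6, from ZNF565 to ZNF573, had 15 common promoters with a median of -0.35. ZNF573 and both ZNF790 regions were lower, and 12 of the 15 lay below 0. With all 4 libraries in the fit 0 were higher, also at an unadjusted p under 0.05 and by limma-voom. The absence of higher calls in run 6 did not hold in every fit with 1 library left out. Run 8, from ZNF577 to ZNF331, had 19 with a median of -0.37. ZNF432, ZNF615, ZNF613, ZNF614 and ZNF611 were lower, 16 of the 19 lay below 0, and again 0 were higher by limma, at an unadjusted p under 0.05 or by limma-voom. Run 7, from ZNF283 to ZNF180, had 11 with a median of -0.11 and a single call (ZNF226, higher), and run 4, from ZNF101 to ZNF254, had 5 with a median of 0.26.

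The medians kept their sign in runs 1, 3, 6, 8 and 10 whichever library was left out. They ranged from 0.93 to 1.34 in run 1, from 0.23 to 0.55 in run 3, from -0.35 to -0.20 in run 6, from -0.49 to -0.35 in run 8 and from 0.27 to 0.43 in run 10. Counts of calls moved more. Without deeper A, deeper B, shallower A and shallower B in turn, run 8 had 2, 1, 7 and 6 lower calls, run 6 had 0, 2, 6 and 2, run 10 had 1, 1, 9 and 4 higher calls, and run 3 had 3, 3, 8 and 4. With equal library totals the order of the runs was similar and the level was lower, with medians of 0.79, 0.03 and 0.00 in runs 1, 3 and 10 and of -0.71 and -0.72 in runs 6 and 8, against -0.29 for all common promoters.

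**Figure D3:**
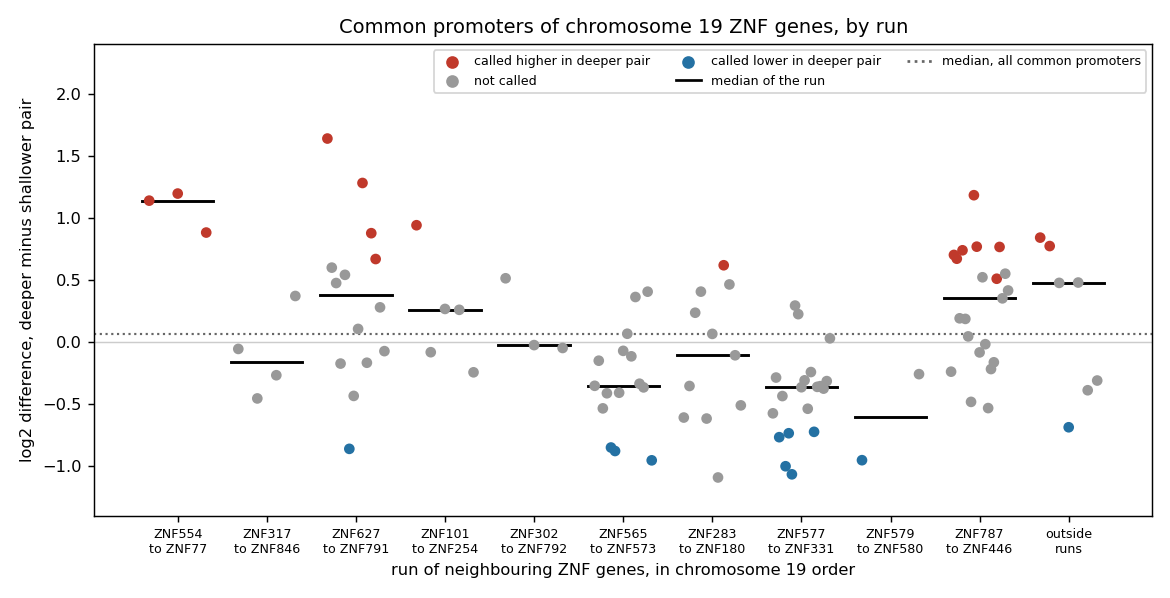
Difference (deeper minus shallower pair, log2) at each common ZNF promoter (points), coloured by limma call, in runs 1 to 10 in chromosome order and outside runs, with run medians as bars and the median of all common promoters dotted. Runs 1, 3 and 10 (the first, the third and the last) have medians of 1.14, 0.38 and 0.35, and runs 6 (ZNF565 to ZNF573) and 8 (ZNF577 to ZNF331) of -0.35 and -0.37.

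Neighbouring ZNF promoters resembled each other more than neighbouring promoters of other genes on the chromosome. Over 64 pairs of ZNF genes at most 3 genes apart (91 genes), Pearson's r of their differences was 0.39, and 38 pairs (59.4%) had the same sign. Over 159 such pairs of other chromosome 19 genes (278 genes), r was -0.08 and 73 pairs (45.9%) had the same sign. These are correlations across sites of the same 4 libraries, whose pairs share genes, libraries and depth, and they were not tested. Other genes inside or beside the runs were few. Within 10 genes of run 1 there were 2 promoters with a median of -0.46, and beside run 3 there were 7 with a median of -0.62, of which 2 were higher and 4 lower, so both medians were opposite in sign to those of the runs. Beside run 6 there were 6 with a median of 0.27, also opposite, beside run 8 there were 2 with a median of -0.19, and beside run 10 there were 3 with a median of 0.19.

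The promoters that were higher and those that were lower differed in an upstream sequence feature. The letters CCAAT, the NF-Y core, were sought on both strands in the 250 bases upstream of the RefSeq start. Among all 27305 RefSeq promoters 33.0% hold them, and among the 252 entries of chromosome 19 ZNF genes 49.6% do. Among common member promoters with an entry, 12 of 17 higher ones (70.6%), 30 of 63 not called (47.6%) and 2 of 10 lower ones (20%) hold CCAAT. Over all common promoters the same shares were 53.3%, 37.9% and 31.3%.

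ZNF77 has 6 copies, ZNF555 has 5, ZNF57 and ZNF8 have 4 each and ZNF444 has 3. ZNF784 and ZNF700 are the lower promoters with the letters. Split by the motif instead, 44 member genes with CCAAT had a median difference of 0.21, with 12 higher and 2 lower, and 46 without had a median of -0.25, with 5 higher and 8 lower. The same split over all common promoters gave medians of 0.20 with and 0.00 without it. In members with CCAAT 27.3% were higher and 4.55% lower, beside 26.7% and 8.87% of all common promoters with it. Without it the shares were 10.9% and 17.4% in members, beside 15.8% and 13.1% of all. For ZNF genes on other chromosomes it gave 0.03 and 0.04, with 9 higher and 1 lower of 36 with the letters and 7 and 7 of 55 without. For other chromosome 19 genes it gave 0.30 and -0.02. Median GC content was 59.2% in member promoters with CCAAT and 62.8% in those without.

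In runs 1, 3, 6, 8 and 10 the motif and the direction of the run went together. CCAAT was present in all 3 common promoters of run 1 with an entry, in 13 of 14 of run 3 and in 14 of 19 of run 10. In runs 6 and 8 it was present in 3 of 14 and 3 of 15, and in run 7 in 3 of 9. Taken as whole runs, position and motif therefore cannot be told apart in runs 1, 3, 6, 8 and 10. Single genes of runs 3 and 10 did not all follow the motif. ZNF799 in run 3 and ZNF787 and ZNF837 in run 10 were higher without CCAAT, and ZNF700 in run 3 was lower with it. The other called common promoters of runs 3 and 10 were higher and held CCAAT. Which of position and motif goes with the differences was not tested. In run 4 and outside runs, motif and direction did not go together at the promoters with an entry. In run 4 the motif was present in 2 of 2 with an entry, of which 0 lay above 0, whereas 3 of all 5 common promoters of that run did. Outside runs the motif was present in 1 of 6, of which 4 lay above 0. In runs 2, 5 and 9 it was present in 1 of 4, 0 of 2 and 1 of 2, and 1, 1 and 0 of these promoters lay above 0. In run 7, 4 of the 9 lay above 0. The YY1 core AAGATGGCG was found in 4 of 90 member promoters, among them ZNF615 and ZNF614, which were both lower. It was found in 1.12% of the common promoters of all genes, in 2.78% of all chromosome 19 ZNF entries and in 0.641% of all RefSeq promoters, and 14.5% of the common promoters holding it were lower. The cyclic AMP response element TGACGTCA was found in 2, the AP-1 letters TGANTCA in 7, and the NRF1 palindrome in 1. These few members had 0 calls by limma, where over all common promoters 16.1% with the cyclic AMP response element were higher and 11.4% lower, and 12.7% and 11.8% of those with the AP-1 letters. All were sought on both strands, a match was counted whether or not it overlapped another, and a match is not a measured binding site.

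**Figure D4:**
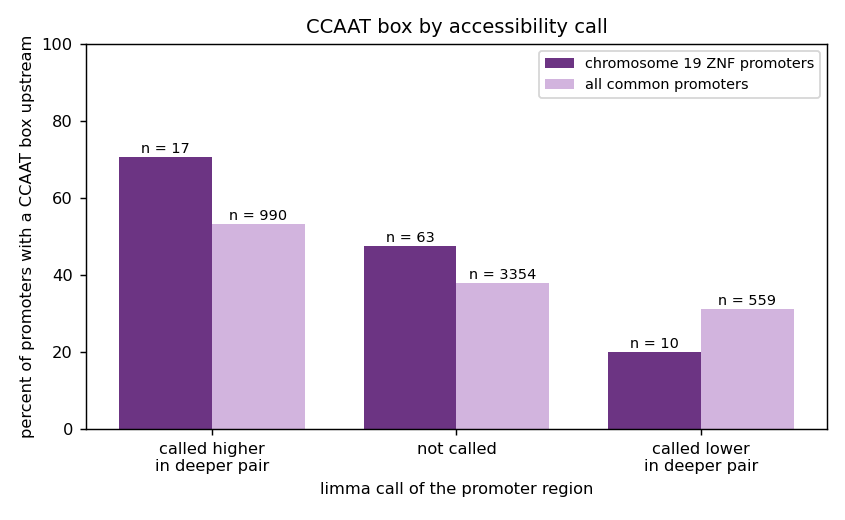
Percent of common promoters with CCAAT or ATTGG in the 250 bases upstream, by limma call, for chromosome 19 ZNF members and for all common promoters (bars). The share falls from 70.6% of higher to 20% of lower members, and from 53.3% to 31.3% of all.

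In the higher calls the shallower libraries were themselves unequal. Shallower B was below shallower A at 15 of the 18 higher common promoters, against 56 of all 104 member promoters and 3993 of 6542 common promoters. Higher calls are picked for low values in the shallower pair. The same count over all common promoters called higher was not made, so this is not shown to be particular to ZNF promoters. Among the 11 lower ones it was below A at 2. Without shallower B, 13 common member promoters were higher and 10 lower, and without shallower A 28 and 21. Leaving out a deeper library reduced the counts most, to 8 and 2 without A and to 7 and 5 without B.

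Not every ZNF gene of the chromosome had an accessible region. Of 250 protein-coding ZNF genes on chromosome 19 in RefSeq, 170 (68.0%) had a region in the table and 120 (48.0%) a promoter region. The corresponding shares were 60.9% and 35.8% of 1201 other chromosome 19 genes, 81.6% and 49.4% of 267 ZNF genes elsewhere and 69.5% and 37.7% of all 20056 protein-coding genes. In run 4, on the short-arm side of the centromere, 21 of 37 genes had a region but only 6 (16.2%) had one annotated as promoter. Of those genes, 20 had a region within 1000 bp of a start, which the table mostly annotates as 5′ UTR or non-coding exon rather than promoter. In run 7 the shares were highest among the runs of more than 6 genes, with 17 of 20 genes having a region and 14 a promoter.

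**Figure D5:**
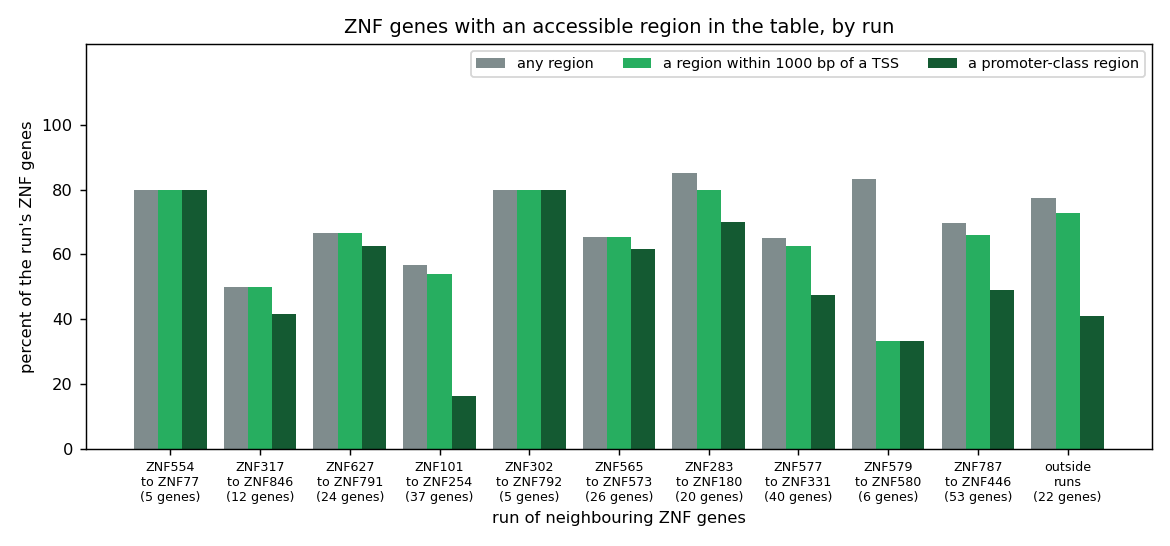
Percent of each run's ZNF genes with any region, with a region within 1000 bp of a start and with a region annotated as promoter (bars). Run 4 (ZNF101 to ZNF254) has the lowest promoter share, 16.2% beside 56.8% for any region.

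Among other common regions, the 6 with higher signal lay at different parts of genes. The region at the transcript end of ZNF551 had 91.7 and 84.7 normalized counts in the deeper and 45.9 and 36.3 in the shallower pair, a difference of 1.09 (SE 0.261, limma adjusted p = 0.00611, and 0.0810 without deeper A). A stronger region at -18309 bp from the start of ZNF543 had 274 and 291 against 161 and 151, a difference of 0.85 (SE 0.172, limma adjusted p = 0.00214), and was kept whichever library was left out. ZNF431, ZNF254, ZNF101 and ZNF653 had the other 4, from 0.87 to 0.57, and each lost its call without deeper A (limma adjusted p from 0.0926 at ZNF431 to 0.329 at ZNF653).

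ZNF285 had the largest lower difference in this class. Its intergenic region, at -9787 bp from the start, had 34.5 and 30.7 normalized counts in the deeper and 105 and 97.2 in the shallower pair. The shallower libraries were about equal and far above the deeper ones. The difference was -1.61 (SE 0.261, limma adjusted p = 0.000403), kept whichever library was left out. ZNF85, 46653 bp from its start, followed at -1.15 (limma adjusted p = 0.0126). ZNF429, an intron of ZNF611, the 5′ UTR of ZNF180 and an intron of ZNF320 had differences from -0.86 to -0.78. These 5 lost their calls without deeper A, with limma adjusted p from 0.0504 at ZNF85 to 0.178 at ZNF180. At ZNF611 the intron and the promoter were lower together.

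Most genes had a single region (134 of 181), and 34 had 2. ZNF254 had 7, the most, and they did not move together. A region at -32082 bp from the start had 124 and 100 normalized counts in the deeper and 67.7 and 55.1 in the shallower pair (0.86, limma adjusted p = 0.0132). An intronic region at 21100 bp had 195 and 184 against 296 and 326 (-0.71, limma adjusted p = 0.00595). Without deeper A these calls were lost, at adjusted p = 0.203 and 0.0655. The promoter, in the shNC-specific set, had 52.2 and 79.1 against 38.7 and 36.3 (0.76, limma adjusted p = 0.0659). The remaining 4 ranged from -0.58 to 0.41 and did not pass.

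ZNF83, a gene for a protein of C2H2 fingers in run 8, had 5 regions, and 0 were called by limma. Its 2 promoter regions had differences of -0.54 (limma adjusted p = 0.0631) and -0.24 (limma adjusted p = 0.411), with both deeper libraries below both shallower ones at each. Its 3 intronic regions lay at 0.10, 0.21 and 0.31, with overlapping libraries.

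In the shNC-specific set, where the deeper pair is labelled shNC, 6 members were higher and all were weak regions. ZNF134 had 56.4 and 55.7 normalized counts in the deeper and 26.6 and 12.9 in the shallower pair. The deeper libraries were equal, and shallower B rested on 11 reads. The difference was 1.54 (SE 0.367, limma adjusted p = 0.00601, and 0.0719 and 0.0592 without deeper A and B). ZNF211, the next gene along in run 10, had 63.1 and 40.3 against 27.8 and 19.9 (1.07, limma adjusted p = 0.0314, and 0.412 without deeper A).

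ZNF233 had 35.3 and 65.4 against 23.0 and 19.9 normalized counts (1.13, limma adjusted p = 0.0292, and 0.467 without deeper B). The 5′ UTR of ZNF296, an intron of ZNF324 and a region between genes near ZNF235 had differences of 1.04, 1.03 and 0.98 (limma adjusted p = 0.0217, 0.0313 and 0.0455). Each of these 3 lost its call without deeper A, without deeper B, without shallower B, with equal library totals and with each set fitted alone. Shallower B was below shallower A in all 6, with a median ratio of 0.535. Without it, ZNF134 and ZNF233 were still called and the other 4 were not (limma adjusted p from 0.0656 at ZNF211 to 0.247 at ZNF324).

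The 7 lower shG8d-specific regions, where the shallower pair is labelled shG8d, lay in introns or between genes. At ZNF675 a region at -29936 bp from the start had 16.8 and 17.8 normalized counts in the deeper and 51.9 and 82.0 in the shallower pair, a difference of -1.86 (SE 0.342, limma adjusted p = 0.00110). At ZNF823 the values were 20.2 and 33.9 against 80.9 and 90.2, a difference of -1.67 (SE 0.305, limma adjusted p = 0.00106). Both were kept whichever library was left out. ZNF507, the pseudogene ZNF321P, ZNF480, ZNF550 and ZNF888 had differences from -1.66 to -1.07. Without deeper A, limma no longer called ZNF507 (adjusted p = 0.0603), ZNF321P (0.0664) or ZNF550 (0.316). The 3 calls that remained were ZNF675, ZNF823 and ZNF480, so ZNF888 was lost as well. ZNF480 was lost without deeper B (limma adjusted p = 0.122), and ZNF550 also without deeper B (0.0924) and without shallower A (0.0543). ZNF480 and ZNF550 each also had an shNC-specific promoter region that did not pass, with differences of 0.17 and 0.13.

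The genes through which KRAB zinc finger proteins act were taken from a list of 32 symbols of the TRIM28 pathway, of which 21 had a promoter region. Of the 13 in the common set, 2 were higher (15.4%, against 19.9% of all common promoters) and 2 lower (15.4%, against 11.7%). Their median was -0.01 beside 0.06 for all common promoters. Over all 3 sets together, whose labels are exchanged and of which the specific ones may have been chosen by difference, 4 were higher (19%, against 22.6% of 8965 genes with 1 promoter each) and 3 lower (14.3%, against 9.86%), with a median of -0.18 beside 0.19 for all. CHAF1A, the large subunit of the chromatin assembly factor CAF-1, had 139 and 113 normalized counts in the deeper and 67.7 and 37.5 in the shallower pair (1.30, SE 0.267, limma adjusted p = 0.00241). SUV39H1, a histone H3 lysine methyltransferase of heterochromatin, had 74.9 and 76.7 against 37.5 and 32.8 (1.09, limma adjusted p = 0.00824). HDAC1, a histone deacetylase, had 88.4 and 94.4 against 58.0 and 35.1 (1.0, limma adjusted p = 0.0130). SUV39H2, a paralog of SUV39H1, was the fourth at 0.65.

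Lower promoters were those of PPHLN1, a subunit of the HUSH silencing complex (-1.07, limma adjusted p = 0.0184), SMARCAD1, a chromatin remodeller (-0.76, limma adjusted p = 0.0327), and CBX5, the heterochromatin protein HP1 alpha. CBX5 had 173 and 179 against 263 and 271 normalized counts (-0.60, limma adjusted p = 0.0168). The co-repressor TRIM28 itself, which lies on chromosome 19 near run 10, had 232 and 221 against 166 and 238 (0.19, limma adjusted p = 0.497), with overlapping libraries. SETDB1 had 56.4 and 55.7 against 49.5 and 58.6 (0.06, limma adjusted p = 0.904). Among the 6 with the largest differences, the calls of SUV39H1, HDAC1, PPHLN1, SMARCAD1 and CBX5 were lost without deeper A (limma adjusted p from 0.0707 at HDAC1 to 0.318 at SMARCAD1), and the call of CHAF1A was kept whichever library was left out. The SUV39H1 and HDAC1 regions are shNC-specific and the PPHLN1 region shG8d-specific, so their labels are the opposite of those of the common regions.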

How the data were processed

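ATAC-seq was deposited for 4 MCF10A libraries, 2 per hairpin, as 1 table of regions. CASAVA 1.4 and the genome build hg19 are named, without a role, in the submitters' processing notes. Which aligner, caller, counter and test followed is not given in the sources used here. Per the file headers, the authors' values are log10 normalized counts per library, beside which stand an annotation class, a p-value, a log2 fold change and the bp to the closest start site. The deposited log2 fold changes and p-values were not used, because their group labels are exchanged between sets of regions.

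As powers of 10, the deposited log10 values were whole multiples of 1 step per library, for 100% of values within 0.05 reads, and the same 4 steps recurred in all 3 sets under exchanged labels. Libraries were therefore named by their step, and reads were recovered by dividing by it. A count of 3 reads, the limit a count of 0 allows, is worth between 2.42 and 3.62 normalized counts, which covers counting error only.

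The planned count tests were not run on these log10 values, and limma-voom on the recovered reads took their place as an alternative. limma 3.58.1 (R 4.3.3) was fitted with a mean-variance trend to log2(normalized count + 1) over all 58127 regions, as the deeper pair minus the shallower, and p-values were adjusted after Benjamini and Hochberg, with calls under 0.05. Adding 1 understates changes at low regions. A filter of 10 normalized counts in at least 2 libraries removed 0 regions. On simulated reads for 58127 regions with 200 changed, this comparison recovered 43% of 2-fold and 98% of 4-fold changes, and 2.76% of its 145 calls were false. Far fewer regions were changed there than were called in the data, and the simulated spread was the same fixed value everywhere. These rates therefore do not carry over to the data.

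The text names, in each set, the 6 called members with the largest difference in each direction, the 5 promoters of highest signal, genes with 5 or more regions and the 3 pathway genes with the largest called difference in each direction. Remaining called promoters and a few members of known function were named after their values were seen. Members, lists and runs were chosen with earlier results of these data known, and runs were set on gene order in RefSeq GRCh38.p14, not on values. Of the 181 symbols, 180 matched a RefSeq symbol and 1 a synonym. For motifs, the promoter of highest signal stood for each gene. Region starts and ends were not analysed here, so positions are distances to a start site. Alternatives were equal library totals, TMM factors, other pseudocounts and filters, each library left out, each set fitted alone, a replicate block, promoters by distance (within 1000 bp), a 2-fold minimum and, chosen after seeing the data, limma-voom on recovered reads. The letters A and B were checked for pairing. The B minus A deviations of the pairs correlated at -0.00 over all regions and 0.01 over members, so no shared shift by letter was seen. No label says whether the letters pair the libraries, and this check cannot settle it.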

Additional observations from a re-analysis of the deposited data

How the results depend on the processing

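Of the 58 called members, all 58 were called again under TMM factors, either other pseudocount (0.5 and 5), no filter, a filter of 30, the replicate block and limma-voom on recovered reads, 53 with each set fitted alone and 38 with equal library totals. Leaving out deeper A, deeper B, shallower A and shallower B kept 16, 23, 57 and 42, and no call changed sign in any of these. With equal library totals the higher and lower counts became 7 and 39 at common promoters, 2 and 30 at other common regions, 1 and 3 at shNC-specific regions and 2 and 7 at pathway promoters. With a 2-fold minimum they were 5 and 2 at common promoters, 1 and 2 at other common regions, and 2 and 1 at pathway promoters. With promoters taken by distance, other common regions had 3 and 5 calls and 6 pathway promoters were lower. With each set fitted alone, 1 shNC-specific member was higher. Leaving out 1 library gave between 7 and 28 higher and between 2 and 21 lower common promoters, between 1 and 11 higher and between 1 and 17 lower other common regions, between 0 and 11 higher and between 0 and 1 lower shNC-specific regions, between 3 and 7 lower shG8d-specific regions, and between 1 and 4 higher and between 0 and 3 lower pathway promoters. The replicate block gave 20 higher and 12 lower common promoters. The sign turned at regions that were not called. Leaving out 1 library gave between -0.53 and 0.14 at the ZNF254 intron region at 229 bp, between -0.077 and 0.28 at the ZNF83 region at 24960 bp and between -0.028 and 0.45 at the ZNF83 region at -24475 bp. With equal library totals the ZNF83 regions at 24960, -24475 and 20318 bp were at -0.25, -0.14 and -0.041. The cause was not tested. edgeR and DESeq2 were not run. With 2 libraries a pair and a median of 60 to 93 reads per member region, a missing call does not show that a region is unchanged. In the simulation 2-fold changes were recovered in fewer than 1 of 2 regions, but its settings differ from the data, so the rate in the data is not known.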
